A study of Mus musculus with 14 samples.

Results

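The glutathione transferases and the UDP-glycosyltransferases are the enzyme families that attach glutathione or a sugar to reactive and fat-soluble compounds in the liver. Their members were taken from the deposited count table as every protein-coding gene whose symbol begins with *Gsta*, *Gstk*, *Gstm*, *Gsto*, *Gstp*, *Gstt*, *Gstz*, *Mgst*, *Ugt1a*, *Ugt2a*, *Ugt2b* or *Ugt3a* and continues with its number. This gave 46 of the 55487 genes in the table, 25 of them glutathione transferase genes and 21 UDP-glycosyltransferase genes. RNA was measured in the right liver lobe of 14 male TALLYHO mice aged 8 to 12 weeks, a strain with several risk loci in which males develop glucose intolerance and insulin resistance. By oral gavage, 7 mice received water (vehicle: G1, G4, G6, G9, G10, G11 and G13) and 7 received 20 mg/kg indole (G2, G3, G5, G7, G8, G12 and G14), as 2 doses a day for 7 days and 2 further doses between the metabolic tests that followed. Livers were collected on the day after the last of these tests, with no dose listed after the 2 further ones. The paper cites a half-life of indole below 8 h. Both tests were done on fasted mice given glucose or insulin. Levels shortly after a dose were therefore not measured. All 14 mice were diabetic-prone TALLYHO males, so no lean strain, other sex, other dose or other time of collection stands beside them. Values from this tissue are averages over all of its cells, and fewer cells of a type cannot be told apart from less RNA in each cell.

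Glutathione transferases join the thiol of glutathione to electrophiles, which makes these more soluble and less reactive, and several members also reduce peroxides. The alpha, mu, pi, theta, zeta and omega classes are mostly soluble in the cytosol, the kappa enzyme lies in mitochondria and peroxisomes, and the *Mgst* enzymes sit in membranes. UDP-glycosyltransferases of the endoplasmic reticulum move a sugar from a UDP-sugar, mostly glucuronic acid, to bilirubin, steroids, bile acids, phenols and drugs. Many of these genes are known targets of the factor NRF2 and of the receptors CAR, PXR, AhR and PPARα. Indole, a product of tryptophan breakdown by gut bacteria, is oxidised in the liver to indoxyl, which is then conjugated mainly with sulphate and in part with glucuronic acid.

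The 9 *Ugt1a* genes occupy a single locus on the plus strand of chromosome 1 (GRCm38). Each has an exon that encodes the substrate-binding part of the enzyme. All are spliced from it to the same exons, of which the first lies at chr1:88215044-88215175. The substrate-binding exon was the first exon of the transcripts used, except in *Ugt1a6a* and *Ugt1a6b*. Their transcripts had 6 exons, and this exon was the second. The junctions are shown because they mark the end of what can tell these genes apart in the counts. The last 15 bases of the substrate-binding exon are in lower case and the first 15 bases of the shared exon in capitals (5′ to 3′, GENCODE M21 transcripts on GRCm38).
Ugt1a10: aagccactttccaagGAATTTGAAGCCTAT
Ugt1a9: aagtcactttccaagGAATTTGAAGCCTAT
Ugt1a8: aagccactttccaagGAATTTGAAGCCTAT
Ugt1a7c: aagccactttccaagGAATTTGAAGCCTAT
Ugt1a6b: ggaaagctgactcagGAATTTGAAGCCTAT
Ugt1a6a: ggaaagctgactcagGAATTTGAAGCCTAT
Ugt1a5: aagcccctctctcagGAATTTGAAGCCTAT
Ugt1a2: aagcccctctctcagGAATTTGAAGCCTAT
Ugt1a1: aagcccctatcccagGAATTTGAAGCCTAT
The capitals were identical in all 9 genes. *Ugt1a10*, *Ugt1a8* and *Ugt1a7c* also shared the 15 bases before the junction, as did *Ugt1a6a* with *Ugt1a6b* and *Ugt1a5* with *Ugt1a2*. Of the exonic bases of *Ugt1a1*, 58.9% lay in exons of other *Ugt1a* genes, and between 29.1% (*Ugt1a6b*) and 49.6% (*Ugt1a6a*) of the stretches of 100 bases in the transcripts of the *Ugt1a* genes tested occurred in no other gene. How the authors' counting treated a read on the shared exons is not stated in the sources used here.

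Sequence shared with other genes also touched some of the glutathione transferases. Of the 46 members, 21 shared no stretch of 100 bases with another gene and 17 had less than 80% of their stretches to themselves. *Gsta1* kept 19.4%, sharing the rest with *Gsta2* and the gene models *Gm3776* and *Gm10639*, and *Gsta2* kept 71.6%. *Gstp1* kept 74.9% beside *Gstp2*, and *Ugt2a1* and *Ugt2a2*, which overlap, kept 5.06% and 6.53%. *Gstm1* and *Gstm3* kept 94.1% and 86.2%, and shared stretches with the pseudogene *Gstm2-ps1*, which itself had 351 to 682 reads per mouse.

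The libraries held between 15197498 and 21060376 reads on genes. Mice G1, G2, G3 and G4, 2 of each group, had TMM scaling factors of 1.07 to 1.08 and the other 10 mice had factors of 0.931 to 1.004. The labels give no batch, and no pair of libraries of a group was as alike as sampling noise allows (chi-square over degrees of freedom at least 16.8). Hepatocyte markers summed to between 62044 and 97085 CPM (reads scaled by TMM to a common library size) in every liver, whereas markers of T and NK cells, 6 in all, reached at most 2.35 CPM. All 5 erythroid markers were higher in indole-treated mice with an unadjusted *p* below 0.05, with summed levels of 204 to 384 CPM in the vehicle group and 263 to 1092 CPM in the indole group. Of 8 Kupffer cell markers, 7 were higher and 1 was lower, none with such a *p*, and their sum was 81.9 to 226 CPM in the vehicle group and 101.9 to 413 CPM in the indole group, G8 being the highest. All 5 markers of sinusoidal endothelium were higher, *Clec4g* with an unadjusted *p* below 0.05, and summed to 52.9 to 94.1 CPM with vehicle and 67.8 to 126 CPM with indole. All 5 bile duct markers were lower, *Krt19* with an unadjusted *p* below 0.05 (edgeR). No marker of these 4 lists was at 0 reads over the 14 mice. Of 5 hepatocyte markers, 3 were higher and 2 lower, 1 of the higher ones with an unadjusted *p* below 0.05 (edgeR). Of 3 pancreatic acinar and 3 intestinal markers, 1 each was tested, and each of these was higher with such a *p*. No marker of pericentral hepatocytes or stellate cells had such a *p*. The part of all these cells in the results that follow was not tested.

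Transcripts of the 46 members took 1.18% of all reads counted on genes, from 1.09% to 1.33% per mouse. Glutathione transferases accounted for 0.879% and UDP-glycosyltransferases for 0.304%. The test of indole against vehicle used the 36 members that passed the expression filter of edgeR, 21 glutathione transferases and 15 UDP-glycosyltransferases, among 12653 genes tested. The other 10 had too few reads. *Gstp3*, *Ugt2a1* and *Ugt2a2* had no read in any mouse, against a floor of 3 reads per mouse, which is 0.142 to 0.203 CPM. *Ugt1a7c* had 134 reads over the 14 mice, *Gstp2* had 24, *Mgst2* had 8 and *Ugt1a2* had 7. All 4 reads of *Ugt2b5* came from indole-treated mouse G12, both reads of *Gstt4* came from vehicle-treated mouse G1 and the 1 read of *Ugt1a8* came from indole-treated mouse G7.

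**Figure D1:**
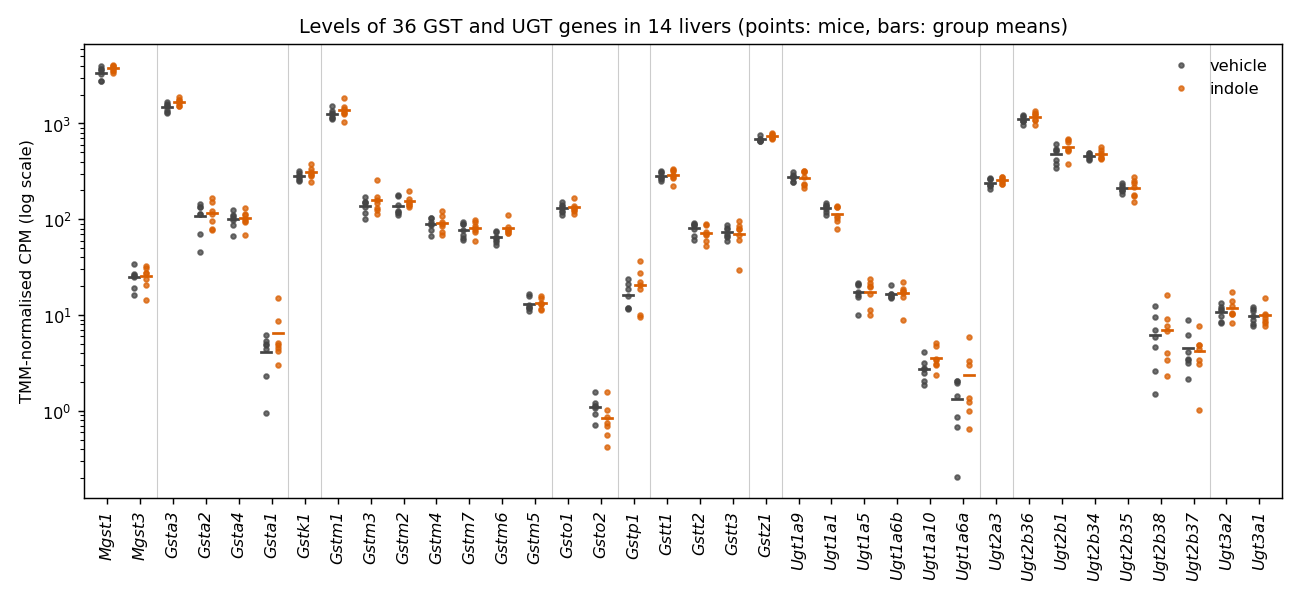
Level of each of the 36 members tested (TMM-normalised CPM, log axis) in every mouse, grouped by family, with vehicle in grey, indole in orange and a bar at each group mean. Levels run from about 1 CPM for *Gsto2* to 3388 and 3765 CPM for *Mgst1*, and the points of the 2 groups overlap for every gene.

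Levels were compared between genes as mean CPM over the 14 mice per kilobase of the sequence that no other gene shares. On that scale *Mgst1*, whose product is a peroxide-reducing transferase of the endoplasmic reticulum and the outer mitochondrial membrane, was the highest member at 1777 CPM per kilobase. It was followed by the mu class gene *Gstm1* at 950, by *Ugt2b36* at 554 and by the alpha class gene *Gsta3* at 362 CPM per kilobase. *Ugt1a9* came next at 299 CPM per kilobase of unshared sequence, and stood at 124 CPM per kilobase when its whole exonic length was used. *Ugt2b1*, *Gstk1*, *Gstt1* and *Gstz1* lay between 139 and 202 CPM per kilobase. At the other end were *Ugt1a6a* with 0.859 and *Gsto2* with 0.416 CPM per kilobase. The single most abundant gene of a family held nearly all of the summed reads in the *Mgst*, *Gsto* and *Gstp* families, whereas the *Gstm* and *Ugt2b* families spread theirs over several genes.

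None of the 36 members tested had an adjusted *p* below 0.05 in edgeR's quasi-likelihood test, the smallest being 0.998, nor did any of the 12653 genes. At an unadjusted *p* below 0.05 there were 2 members, *Gstm6* and *Gsta3*, beside 3.81% of all genes tested. Both were higher in indole-treated mice, a direction in which 1.53% of all genes passed, and no member was lower at that threshold, as 2.28% of all genes were. DESeq2 on the same genes gave 3 members, the same 2 and *Gstz1*, beside 4.20% of all genes in that fit, and 0 of the members at an adjusted *p* below 0.05. On every gene with a read it gave the same 3, beside 3.19% of those genes. A change of more than 0.5 on the log2 scale was seen for 2 of the 36 members (*Ugt1a6a* and *Gsta1*), beside 3.04% of all genes. Of the 36 members, 30 were higher on average and 6 were lower, against 51.3% higher and 48.7% lower over all genes. Their median log2 fold change was 0.08, where that of all genes tested was 0.00415, and the median size of the change regardless of sign was 0.10 beside 0.09 over all genes. No member had groups that did not overlap, which was the case for 0.0474% of all genes.

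The lean towards higher levels moved with single mice. Without indole-treated mouse G8 the median over the members fell from 0.08 to 0.02 and 25 of the 37 members then tested were higher. Without vehicle-treated mouse G13 it was 24 of 36, and without vehicle-treated mouse G1 it was 25 of 36. G8 had the highest level of all 14 mice for 11 of the 36 members and G5, also indole-treated, for 10, while G2 (indole) had the lowest level for 11 and G13 for 9. With 1 surrogate variable as a covariate, 24 of 36 members were higher and the median was 0.04.

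**Figure D2:**
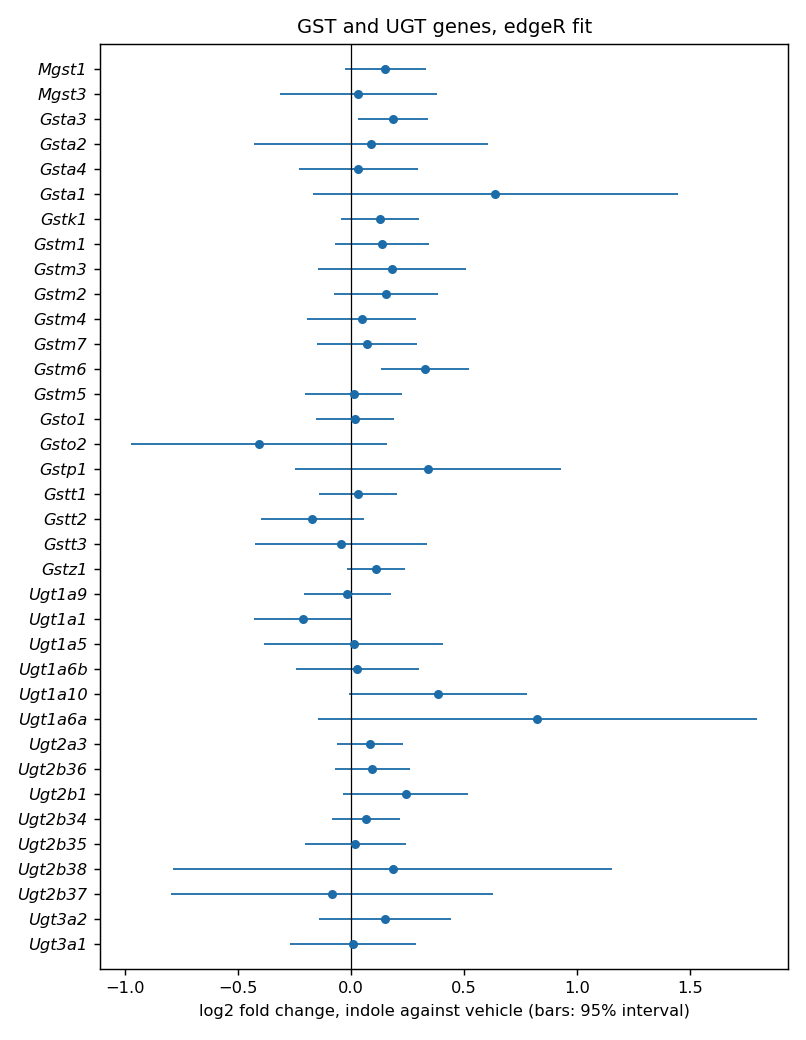
Log2 fold change of each of the 36 members tested, indole against vehicle, from the edgeR fit (points), with 95% intervals (bars), ordered by family. The intervals of *Gstm6* and *Gsta3* lie above 0 and those of the other genes reach or cross it.

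*Gstm6* (ENSMUSG00000068762, chromosome 3 from 107938847 to 107943749, minus strand) is a mu class transferase gene in the row of *Gstm* genes on that chromosome. The vehicle-treated mice ranged from 54.1 to 75.1 CPM with a median of 63.8, and the indole-treated mice from 71.1 to 112 CPM with a median of 77.2. Each of the 7 mice given indole exceeded the vehicle median and 5 exceeded the whole vehicle group, so the groups overlapped by a few mice only. The means were 64.7±7.85 CPM (SD, *n*=7) and 81.2±14.2 CPM (SD, *n*=7). Few relabellings of the mice gave a difference in mean log2 CPM as large as this (exact permutation test, 2-sided unadjusted *p*=0.00699). The log2 fold change was 0.33 (standard error, SE, 0.0993), with an unadjusted *p* of 0.00344 and an adjusted *p* of 0.998 from edgeR. The value of 112 CPM was that of G8, and without this mouse the log2 fold change was 0.24. Over all 25 alternatives the unadjusted *p* stayed between 0.00135 and 0.00923 and the adjusted *p* was at least 0.67.

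*Gsta3* (ENSMUSG00000025934, chromosome 1 from 21240589 to 21265661, plus strand) encodes the main alpha class transferase of mouse liver, known for conjugating the epoxide of aflatoxin. Its levels ran from 1275 to 1664 CPM (median 1514) in the vehicle group and from 1517 to 1878 CPM (median 1669) in the indole group. Every indole-treated mouse was above the vehicle median, and 4 were above every vehicle-treated mouse. The means were 1470±153 CPM and 1674±129 CPM (SD, *n*=7 each), and few relabellings of the mice gave as large a difference (exact permutation test, 2-sided unadjusted *p*=0.0233). The log2 fold change was 0.19 (SE 0.0793, unadjusted *p*=0.0288, adjusted *p*=0.998 from edgeR). Leaving out G9, G10, G12 or G13 took its unadjusted *p* above 0.05, to at most 0.0679 without G13.

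The other 3 alpha class genes were higher on average, with an unadjusted *p* of 0.143 or more from edgeR. *Gsta2*, whose enzyme reduces lipid peroxides, was at 108±37.1 CPM with vehicle and 115±34.8 CPM with indole, and *Gsta4*, which detoxifies the lipid aldehyde 4-hydroxynonenal, was at 99.9±18.7 CPM and 102.1±19.3 CPM (SD, *n*=7 each). *Gsta1* varied most in this class, from 0.947 to 6.26 CPM (median 4.84) in vehicle-treated mice and from 2.99 to 15.1 CPM (median 4.87) in indole-treated mice. The medians of *Gsta1* were nearly equal, and the highest values were 15.1 CPM in G8 and 8.64 CPM in G5, both indole-treated. The log2 fold change of *Gsta1*, 0.64 (SE 0.411), became 0.29 without G8. Summed as close copies, *Gsta1* and *Gsta2* had a log2 fold change of 0.11 (SE 0.269). That sum rests mostly on *Gsta2*, with 27147 reads beside 1266 of *Gsta1*, and leaves out *Gm3776* and *Gm10639*. These 2 had log2 fold changes of 0.51 (SE 0.455) and 0.19 (SE 0.366), and both were highest in G8. The sum of the alpha class was 1683±186 CPM with vehicle and 1898±147 CPM with indole (SD, *n*=7 each).

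**Figure D3:**
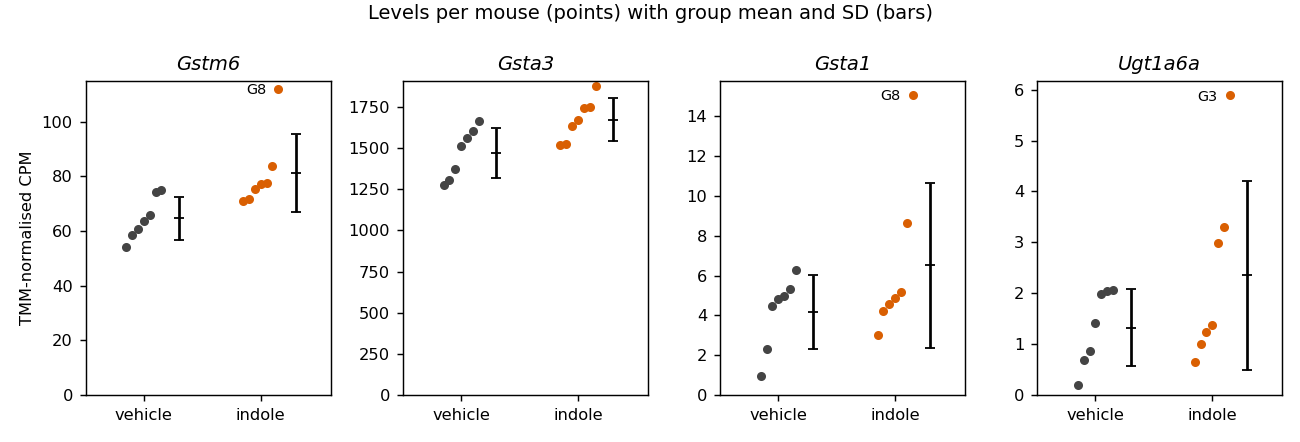
TMM-normalised CPM of *Gstm6*, *Gsta3*, *Gsta1* and *Ugt1a6a* in each mouse (points, sorted within each group), with the group mean and SD beside them and linear axes from 0. All 7 indole-treated mice lie above the vehicle median of *Gstm6* and *Gsta3*, which is not so for *Gsta1* and *Ugt1a6a*. The highest value is that of G8 for *Gstm6* and *Gsta1*, of G12 for *Gsta3* and of G3 for *Ugt1a6a*.

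All 7 mu class genes were higher on average, with log2 fold changes from 0.01 for *Gstm5* to 0.33 for *Gstm6*. *Gstm1* (ENSMUSG00000058135), the most abundant of them, ranged from 1106 to 1518 CPM (median 1241) with vehicle and from 1039 to 1857 CPM (median 1324) with indole. The highest and the lowest of the 14 livers were both from indole-treated mice, G8 and G2. Its log2 fold change of 0.14 (SE 0.106) was smaller than the spread allows to be told from 0 (exact permutation test, 2-sided *p*=0.303) and was 0.05 without G8. *Gstm2*, *Gstm3*, *Gstm4* and *Gstm7* had log2 fold changes of 0.15, 0.18, 0.05 and 0.07. In G8, the summed level of the class was 2645 CPM and in the other indole-treated mice it was 1504 to 2060 CPM, beside 1539 to 2124 CPM with vehicle. Without G8, 5 of the 7 genes were higher. G8 was also the mouse with the highest Kupffer cell marker sum, and the part of this in the mu class values was not tested.

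*Mgst1* (ENSMUSG00000008540, chromosome 6 from 138140316 to 138156755) ranged from 2743 to 4014 CPM (median 3561) with vehicle and from 3331 to 4111 CPM (median 3799) with indole. The 2 lowest values, 2743 and 2759 CPM, were those of the vehicle-treated mice G1 and G4, and the rest of the groups overlapped. The means were 3388±491 CPM and 3765±279 CPM (SD, *n*=7 each; exact permutation test, 2-sided *p*=0.11). Its log2 fold change was 0.15 (SE 0.0908, unadjusted *p*=0.109, adjusted *p*=0.998 from edgeR), and with the split between G1 to G4 and the other mice as a covariate the unadjusted *p* was 0.0175. In that fit 3 members passed in place of 2, and 4.99% of all genes in place of 3.81%. *Mgst3*, whose enzyme also reduces lipid peroxides, was at 24.8±5.70 CPM and 25.3±6.28 CPM (SD, *n*=7 each).

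The zeta class gene *Gstz1* (ENSMUSG00000021033, chromosome 12 from 87147165 to 87164723) encodes maleylacetoacetate isomerase of tyrosine breakdown and was the member that varied least between mice. It lay between 649 and 760 CPM (median 677) with vehicle and between 692 and 786 CPM (median 730) with indole. All indole-treated mice exceeded the vehicle median, and vehicle-treated mouse G6 lay among them. The means were 682±37.4 CPM and 736±37.9 CPM (SD, *n*=7 each), a difference that few relabellings of the mice reached (exact permutation test, 2-sided unadjusted *p*=0.021). From edgeR, the log2 fold change was 0.11 (SE 0.0646) with an unadjusted *p* of 0.102. The kappa gene *Gstk1* was at 281±25.7 CPM and 308±42.5 CPM (SD, *n*=7 each), a log2 fold change of 0.13, with G5 the highest at 382 CPM. It was 0.07 without G5 and 0.18 without G2, where its unadjusted *p* from edgeR was 0.0432.

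Of the 5 theta and omega class genes tested, 2 were higher on average and 3 lower. *Gstt1*, which acts on small halogenated compounds, was at 285±25.7 CPM and 291±39.4 CPM, *Gstt2* at 80.4±12.3 CPM and 71.4±13 CPM, and *Gstt3* at 73.2±9.77 CPM and 70.9±21.4 CPM (vehicle and indole, SD, *n*=7 each). The log2 fold changes were 0.03, −0.17 and −0.05. *Gstt3* was at 29.6 CPM in indole-treated mouse G2, where the other 13 mice had 59.4 to 95.9 CPM, and without G2 its log2 fold change was 0.09. *Gsto1*, a reductase of dehydroascorbate, was at 131±13.6 CPM and 133±18 CPM (SD, *n*=7 each). *Gsto2* had 8 to 29 reads per mouse and a log2 fold change of −0.41 (SE 0.288), with 6 of 7 indole-treated mice under the vehicle median (exact permutation test, 2-sided *p*=0.102).

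*Gstp1* (ENSMUSG00000060803, chromosome 19 from 4035407 to 4037985) encodes the pi class enzyme, which conjugates a wide range of electrophiles. It varied 3.82-fold between the highest and the lowest mouse, from 11.5 to 23.7 CPM (median 15.8) with vehicle and from 9.58 to 36.6 CPM (median 20.6) with indole. Both the lowest and the highest mouse, G3 and G12, had received indole. The log2 fold change was 0.34 (SE 0.300; exact permutation test, 2-sided *p*=0.435) and 0.14 without G12.

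Among the UDP-glycosyltransferases the *Ugt1a* genes differed from each other in level by several orders of magnitude. Their substrate-binding exons lie between 2.17 kb (*Ugt1a1*) and 159 kb (*Ugt1a10*) upstream of the shared exon whose first bases are printed above in capitals. Per kilobase of unshared sequence, *Ugt1a9* (299 CPM) and *Ugt1a1* (128 CPM) were the highest, *Ugt1a6b* and *Ugt1a5* followed with 24.2 and 21.6 CPM, and *Ugt1a10* and *Ugt1a6a* had 2.94 and 0.859 CPM. *Ugt1a7c*, *Ugt1a2* and *Ugt1a8* had 0.258, 0.0342 and 0.00434 CPM per kilobase from 134, 7 and 1 reads. The 2 highest genes were thus the nearest to the shared exons and, at 143 kb, the farthest but 1.

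**Figure D4:**
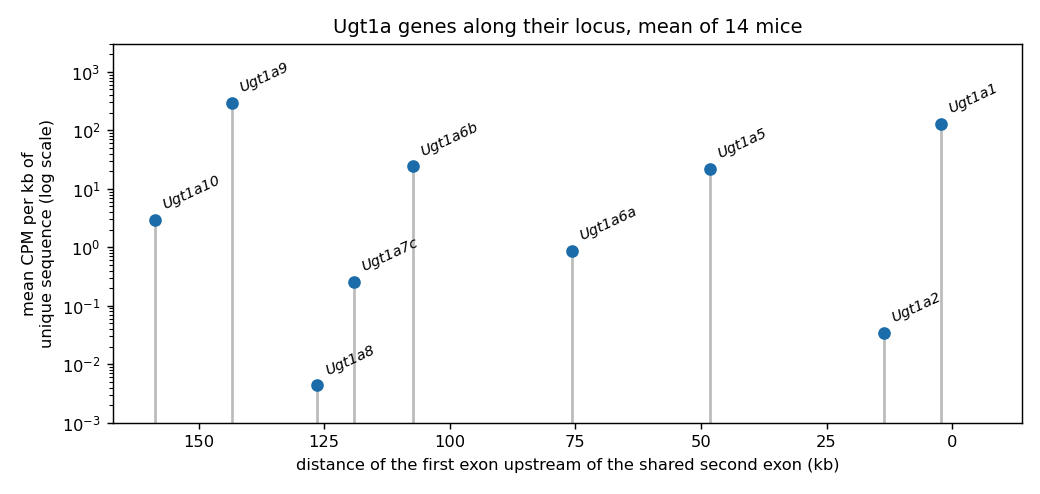
Mean level of the 9 *Ugt1a* genes (CPM per kilobase of unshared sequence over 14 mice, log axis) against the distance of the substrate-binding exon upstream of the shared exons (kb). The axis calls these the first and second exon, which does not hold for *Ugt1a6a* and *Ugt1a6b*. *Ugt1a1* at 2.17 kb and *Ugt1a9* at 143 kb are the highest, and *Ugt1a8* at 126 kb, with 1 read, is the lowest.

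*Ugt1a1* (ENSMUSG00000089960, chromosome 1 from 88211959 to 88218997), the enzyme that conjugates bilirubin, was the member with the smallest *p* among those lower on average. Vehicle-treated mice had 110 to 146 CPM (median 138) and indole-treated mice 78.8 to 138 CPM (median 109). Of the 7 indole-treated mice, 6 lay below the vehicle median and 4 below every vehicle-treated mouse, while 3 lay among the vehicle values. The means were 131±13.3 CPM and 113±22.6 CPM (SD, *n*=7 each; exact permutation test, 2-sided *p*=0.088). The log2 fold change was −0.21 (SE 0.110, 95% interval −0.43 to 0.00365), with an unadjusted *p* of 0.0685 and an adjusted *p* of 0.998 from edgeR, and over the alternatives the unadjusted *p* ran from 0.027 to 0.16.

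*Ugt1a10* was on average higher, at 2.75±0.747 CPM with vehicle and 3.61±0.975 CPM with indole (SD, *n*=7 each), a log2 fold change of 0.39 (SE 0.201; exact permutation test, 2-sided *p*=0.0787). *Ugt1a6a*, whose enzyme conjugates planar phenols, had only 3 to 110 reads per mouse. Its levels were 0.203 to 2.06 CPM (median 1.42) with vehicle and 0.644 to 5.89 CPM (median 1.38) with indole. The median was slightly lower with indole although the log2 fold change was 0.82 (SE 0.496), and without G3, the highest mouse, this was 0.41. *Ugt1a9*, *Ugt1a5* and *Ugt1a6b* had log2 fold changes of −0.02, 0.01 and 0.03. Counted together, the reads of the locus were at 443±37.2 CPM and 425±67.8 CPM (SD, *n*=7 each), a log2 fold change of −0.06 (SE 0.0948).

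The *Ugt2b* genes on chromosome 5, whose enzymes conjugate steroids and bile acids among other compounds, included the most abundant UDP-glycosyltransferase, *Ugt2b36* (ENSMUSG00000070704). It ranged from 967 to 1213 CPM (median 1060) with vehicle and from 964 to 1356 CPM (median 1232) with indole, so the vehicle values fell within the range seen with indole, and the log2 fold change was 0.09 (SE 0.0846). *Ugt2b1* was at 476±98.8 CPM and 563±108 CPM (SD, *n*=7 each), a log2 fold change of 0.24 (SE 0.140, 95% interval −0.03 to 0.52; exact permutation test, 2-sided *p*=0.153). *Ugt2b34* and *Ugt2b35* had log2 fold changes of 0.07 and 0.02.

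*Ugt2b38* and *Ugt2b37* had few reads and differed widely between mice of the same group. *Ugt2b38* ran from 1.49 to 12.6 CPM (median 5.94) with vehicle and from 2.30 to 16.1 CPM (median 6.77) with indole, a 10.8-fold range over the 14 mice. Its biological coefficient of variation in edgeR was 62.4%, beside 12% for *Gstz1*. *Ugt2b37* ran from 2.18 to 8.87 CPM (median 3.51) and from 1.02 to 7.78 CPM (median 4.47), and its log2 fold change was −0.08 (SE 0.363). For neither gene did 1 group lie to a side of the other.

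The single *Ugt2a* gene with reads, *Ugt2a3*, was at 240±25 CPM and 255±17.3 CPM (SD, *n*=7 each), with all 7 indole-treated mice above the vehicle median and a log2 fold change of 0.08 (SE 0.0752; exact permutation test, 2-sided *p*=0.213). *Ugt3a2* and *Ugt3a1*, of a family that uses sugars other than glucuronic acid, were at 10.7±1.95 and 9.90±1.74 CPM with vehicle and 11.9±3.07 and 9.93±2.38 CPM with indole (SD, *n*=7 each). Both had their highest value in G12, and the log2 fold change of *Ugt3a2* fell from 0.15 to 0.04 without it.

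Summed over all 46 members the level was 11383±840 CPM with vehicle and 12423±937 CPM with indole (SD, *n*=7 each), with 3 of the indole group above the whole vehicle group. As a ratio of indole to vehicle, the sum was 1.11 for *Mgst*, 1.10 for *Gstm*, 1.13 for *Gsta*, 1.08 for *Ugt2b*, 0.988 for *Gstt* and 0.958 for *Ugt1a*. These sums are given as a description, without a test.

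Some members varied together from mouse to mouse, within both groups. The deviation of each mouse from its group mean in log2 CPM was compared between each of the 36 members and 5 genes known as targets of the receptors and factors that act on these families. These were *Nqo1* (NRF2), *Cyp2b10* (CAR), *Cyp3a11* (PXR), *Cyp1a2* (AhR) and *Cyp4a14* (PPARα). Of the 180 relations, 15 had an adjusted *p* below 0.05 by Pearson's *r* in a permutation test within the groups, all positive, and 11 of them also by Spearman's rho. The median *r* of the 180 was 0.34. Genes outside the families were not compared with these 5, so no share over all genes can be set beside the count. *Cyp2b10* accounted for 7 of the 15, *Cyp3a11* for 5 and *Nqo1* for 3, and *Cyp1a2* and *Cyp4a14* for 0. Some members were counted under more than 1 of them, *Gstm1* and *Gstm2* under *Cyp2b10* and *Nqo1*, and *Gsta4* under *Cyp2b10* and *Cyp3a11*. Relations of the 5 genes with each other are not given here, so the split does not assign members to separate receptors. None of these 5 genes passed the test between the groups, with log2 fold changes of 0.00472 for *Nqo1*, −0.26 for *Cyp2b10*, 0.06 for *Cyp3a11*, 0.10 for *Cyp1a2* and 0.26 for *Cyp4a14* (unadjusted *p* from 0.505 to 0.983, adjusted *p* of 0.998 or more from edgeR). The value of *Cyp2b10* was −0.08 without G2 and that of *Cyp1a2* was 0.03 without G12.

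The smallest *p* was shared by *Gstm2* with the quinone reductase gene *Nqo1* and *Gstt3* with the cytochrome gene *Cyp2b10*. For *Gstm2* and *Nqo1*, *r* over the 14 mice was 0.88 (permutation *p*=7e-05, adjusted *p*=0.006) and rho was 0.85 (permutation *p*=0.0002, adjusted *p*=0.0108). It was 0.75 without G8 and G11, the mice farthest from the median of *Nqo1*, and 0.94 among the 10 mice with low TMM factors, the other 4 being too few for a value of their own. *Gstt3* and *Mgst3* followed *Cyp2b10*, with *r* of 0.86 each (permutation *p*=7e-05 and 0.00019, adjusted *p*=0.006 and 0.00855) and rho of 0.85 and 0.78 (permutation *p*=0.0003 and 0.00251, adjusted *p*=0.0108 and 0.0383). Without G2 and G12 these values of *r* were 0.79 and 0.75, and among the 10 mice they were 0.88 and 0.83. *Ugt2a3* and *Gsto1* followed *Cyp3a11*, with *r* of 0.85 and 0.87 (permutation *p*=0.0001 and 0.00029, adjusted *p*=0.006 and 0.0104) and rho of 0.87 and 0.88 (permutation *p*=0.0003 and 0.00027, adjusted *p*=0.0108 each). Without G5 and G13 these were 0.80 and 0.70, and among the 10 mice 0.87 and 0.90. *Gstm6* with *Nqo1* had an *r* of 0.74 (permutation *p*=0.00208, adjusted *p*=0.034) and a rho of 0.63 (permutation *p*=0.0236, adjusted *p*=0.168), and *r* was 0.54 without G8 and G11 and 0.78 among the 10 mice.

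**Figure D5:**
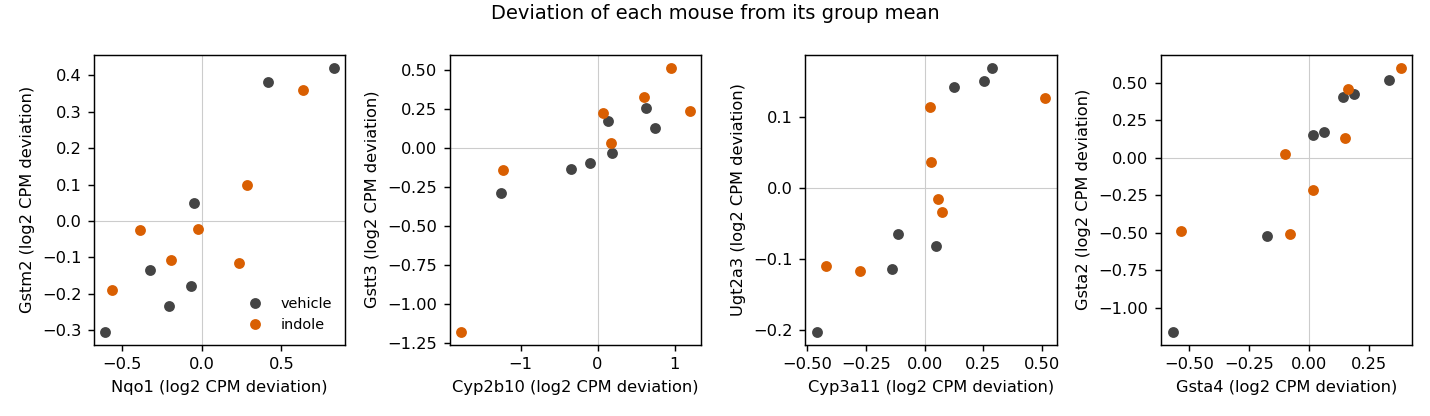
Deviation of each mouse from its group mean in log2 CPM (vehicle in grey, indole in orange) for *Gstm2* against *Nqo1*, *Gstt3* against *Cyp2b10*, *Ugt2a3* against *Cyp3a11* and *Gsta2* against *Gsta4*. The points rise together in each panel, with *r* of 0.88, 0.86, 0.85 and 0.91, and mice of both groups lie along the trend.

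Between the most abundant genes of the 12 families, 8 of 66 relations had an adjusted *p* below 0.05 by *r*, all positive, and 0 had one by rho, for which the smallest adjusted *p* in the permutation test was 0.0635. The median *r* of the 66 relations was 0.33. The largest was *Gstk1* with *Gsto1* at *r* of 0.88 (permutation *p*=0.0003, adjusted *p*=0.0142) and rho of 0.76 (permutation *p*=0.00347, adjusted *p*=0.0635), and *r* was 0.78 without G5 and G7 and 0.86 among the 10 mice. *Gstk1* also went with *Gstz1* and *Gstt1*, at *r* of 0.78 and 0.81 (permutation *p*=0.00043 and 0.00184, adjusted *p*=0.0142 and 0.0304) and rho of 0.72 each (permutation *p*=0.00816 and 0.00768, adjusted *p*=0.0635 each). Without G5 and G7 these values of *r* were 0.67 and 0.79, and among the 10 mice 0.80 and 0.70. *Gsto1* went with *Ugt2a3* at *r* of 0.77 (permutation *p*=0.00133, adjusted *p*=0.0293) and rho of 0.78 (permutation *p*=0.00267, adjusted *p*=0.0635), and *r* was 0.71 without G5 and G13 and 0.75 among the 10 mice.

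All 630 pairs of the 36 members were compared after the first relations had been seen. Of these, 32 had an adjusted *p* below 0.05 by *r* and 9 by both *r* and rho, all of them positive. The median *r* of the 630 pairs was 0.21, and pairs of genes outside the families were not compared. *Gsta2* with *Gsta4* had the largest *r*, 0.91 (permutation *p*=2e-05, adjusted *p*=0.0063), with a rho of 0.93 (permutation *p*=1e-05, the smallest that 100000 draws can give, adjusted *p*=0.0063), and *r* was 0.83 without G11 and G13 and 0.96 among the 10 mice. The 2 genes lie on chromosome 9, and *Gsta4* shares no stretch of 100 bases with another gene. *Ugt2b1* with *Ugt2b38* had an *r* of 0.90 (permutation *p*=0.0001, adjusted *p*=0.0158) and a rho of 0.85 (permutation *p*=0.00061, adjusted *p*=0.0361), with *r* of 0.83 without G4 and G11 and 0.87 among the 10 mice. *Mgst3* went with *Gstt3* and *Gstt1* at *r* of 0.88 and 0.90 (permutation *p*=2e-05 and 8e-05, adjusted *p*=0.0063 and 0.0158) and rho of 0.94 and 0.89 (permutation *p*=2e-05 and 0.00015, adjusted *p*=0.0063 and 0.0315). Without the 2 mice farthest from the median, *r* was 0.88 for *Gstt3* and 0.87 for *Gstt1*, and among the 10 mice it was 0.91 and 0.84. The values of each mouse come from 1 library and 1 lobe, so anything that differs between libraries enters both genes of a pair.

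NRF2 acts through a DNA element with the core TGACNNNGC, and AhR through one with the core GCGTG. Promoters of 300 bases, from 250 before to 50 after the start of transcription, were matched for 42 of the 46 members, 51 promoters in all (RefSeq, GRCm38.p6), and searched on both strands. The core TGACNNNGC occurred in 4 of the 51 (7.84%), beside 12.4% of 32851 promoters of all genes. GCGTG occurred in 10 (19.6%), beside 32.4%. The 4 windows that hold TGACNNNGC are shown because they include *Gsta3* and *Mgst1*, 2 of the most abundant members, with the match in capitals.
Gsta3, chr1:21240448-21240488, plus strand: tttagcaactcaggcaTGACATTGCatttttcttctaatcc
Gstm5, chr3:107895796-107895836, plus strand: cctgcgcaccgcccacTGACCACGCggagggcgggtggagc
Gstm7, chr3:107931719-107931759, minus strand: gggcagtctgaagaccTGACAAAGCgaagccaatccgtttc
Mgst1, chr6:138140455-138140495, plus strand: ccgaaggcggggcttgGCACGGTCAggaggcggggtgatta
The matches begin 121, 42, 129 and 56 bases upstream of the start, and that of *Mgst1* reads on the opposite strand. The 4 genes had log2 fold changes of 0.19, 0.01, 0.07 and 0.15. None of the 3 promoters of *Gstm6* held either core in these windows.

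The genes that supply or surround these enzymes were read from the same edgeR fit. In it, 51.3% of all genes tested were higher and 3.81% had an unadjusted *p* below 0.05. Of 15 genes of glutathione synthesis and use that were tested, 8 were higher and 7 lower and 0 had an unadjusted *p* below 0.05, the most abundant being the peroxidase *Gpx1* with a log2 fold change of 0.04. Of 15 NRF2 targets outside the families, 11 were higher and 4 lower, and 1 passed unadjusted, the aldehyde oxidase *Aox1* with a log2 fold change of 0.27 (unadjusted *p*=0.0331, adjusted *p*=0.998 from edgeR; exact permutation test, *p*=0.105). The most abundant of that list, the epoxide hydrolase *Ephx1*, had a log2 fold change of 0.19.

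Of the 6 genes that make and carry UDP-glucuronate or concern the cleavage of glucuronides, 2 were higher and 4 lower. The most abundant, *Ugp2*, which makes UDP-glucose, had a log2 fold change of −0.02. *Ces1e*, a carboxylesterase that holds β-glucuronidase in the endoplasmic reticulum, was at 171±18.9 CPM and 210±28.7 CPM (SD, *n*=7 each; exact permutation test, 2-sided *p*=0.00816), a log2 fold change of 0.30 with an unadjusted *p* of 0.00328 (adjusted *p*=0.998, edgeR). β-Glucuronidase itself, *Gusb*, had a log2 fold change of −0.03. Of 9 exporters and uptake carriers of conjugates, 6 were higher and 3 lower and 0 passed unadjusted, with *Slco1b2* the most abundant (log2 fold change 0.06). Of 13 regulators 2 were higher and 11 lower, 0 passed unadjusted, and the most abundant, *Hnf4a*, had a log2 fold change of −0.07. Among 18 other conjugation enzymes tested, 13 were higher and 5 lower, and 1 passed unadjusted, beside 3.81% of all genes tested. This was the sulphotransferase gene *Sult2a8*, at 393±97.6 CPM with vehicle and 546±84.5 CPM with indole (SD, *n*=7 each; exact permutation test, 2-sided *p*=0.00816), with a log2 fold change of 0.48 (SE 0.138, unadjusted *p*=0.0029, adjusted *p*=0.998 from edgeR). None of the genes of these 6 lists had an adjusted *p* below 0.05.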

How the data were processed

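The liver RNA libraries were strand-specific and poly(A)-selected. HISAT2 alignment to GRCm38 was done by the authors, who counted the uniquely mapping reads on Ensembl genes and deposited those raw counts, not normalised. Reads that fitted copies at several places equally well were therefore not counted. The counting tool is not given in the sources used here, so reads on exons that overlap between genes, as in *Ugt1a*, may have been lost or assigned to any of them. All 14 columns of counts were used, with groups taken from the labels, which name separate mice. Totals are given with the results, and 3 reads per mouse was the floor.

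edgeR 4.0.16 in R 4.3.3 (TMM, filterByExpr with a minimum count of 10, robust quasi-likelihood test) was fitted to the whole table with Benjamini–Hochberg adjustment over 12653 genes. Standard errors (SE) are the size of the log2 fold change over the square root of F. An exact permutation test over 3432 relabellings was run for single genes. Its *p* values were not adjusted for the number of genes, and it was not run on all genes. Relations between genes used log2 CPM (prior count 2), deviations from group means and 100000 permutations within the groups. The procedure was tested on simulated data.

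The genes named are the most abundant of each family, those with an unadjusted *p* below 0.05, the 5 of smallest *p* among the higher and among the lower, the 5 that varied most within the groups and the *Ugt1a* genes. In the lists they are those with such a *p*, the most abundant gene and the 5 receptor targets, and of the relations the 5 with the smallest *p*. *Gusb*, the relation of *Gstm6* with *Nqo1* and remaining members were named after their values had been seen. The members, lists and rules were chosen with earlier results of these data known. Unshared sequence was computed from GENCODE M21 transcripts, whose exonic length equalled the deposited gene length for all 46 members.

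Other settings were DESeq2 1.42.0 (genes tested, or every gene with a read), limma 3.58.1 voom with quality weights, scaling by RLE or upper quartile, no filter, a minimum mean of 10 counts, a non-robust fit, 1 surrogate variable (sva 3.50.0), close copies summed, and leaving out each mouse. The split of libraries by TMM factor as a covariate, the 10-mouse relations and the comparison of all pairs of members were chosen after seeing the data.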

Additional observations from a re-analysis of the deposited data

Results flagged for a closer look

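In 74 comparisons of the lowest or highest mouse with the rest of its group, 3 mice stood apart by Dixon's criterion, in 4 comparisons, and chance alone gives about 5% of groups. The comparisons covered the members chosen by the naming rules and the family sums, not every member tested. Among members not compared, *Gstm3* had 259 CPM in indole-treated mouse G8 and 114 to 171 CPM in the other 6. *Ugt3a1* had 14.9 CPM in indole-treated mouse G12 and 7.76 to 10.2 CPM in the other 6. For *Gstm6*, indole-treated mouse G8 had 112 CPM where the other 6 had 71.1 to 83.8 CPM, a gap of 0.689 of the group's range. For *Ugt1a6b*, vehicle-treated mouse G9 had 20.7 CPM where the other 6 had 14.9 to 16.6 CPM, a gap of 0.709 of the range. For *Gstz1*, vehicle-treated mouse G6 had 760 CPM where the other 6 had 649 to 688 CPM, a gap of 0.647 of the range. The sum of the *Gstz* family is the same gene and gave the same value, 0.647.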

How the results depend on the processing

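No member had an adjusted *p* below 0.05 under any of the 25 alternatives. The count at an unadjusted *p* below 0.05 was 2, beside 3.81% of all genes, and 4 without a filter on low counts, beside 5.93%, where *Ugt1a1* and *Ugt2b5*, the latter on 4 reads of 1 mouse, were added. Leaving out 1 mouse gave counts of 1 (without G12, beside 4.85% of all genes) to 4 (without G3, beside 4.33%) and medians of 0.02 (without G8) to 0.12 (without G2). The other alternatives gave 2 or 3 members and medians of 0.04 to 0.08. *Gstm6* kept its unadjusted call under all of them.

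With 1 surrogate variable the sign turned for *Gsto1* (−0.0192), *Gstt1* (−0.00494), *Cyp3a11* (−0.00943), *Gpx1* (−0.0161) and *Nqo1* (−0.0734), as it did for *Nqo1* with the library split as a covariate (−0.0155). The ratio of the *Gstt* sum was 1.01 per kilobase in place of 0.988. Leaving out 1 mouse turned the sign of small changes, with ranges of −0.0423 to 0.12 for *Cyp3a11*, −0.19 to 0.46 for *Cyp4a14*, −0.0496 to 0.10 for *Gpx1*, −0.0488 to 0.0569 for *Gsto1*, −0.00382 to 0.0885 for *Gstt1*, −0.13 to 0.0915 for *Gstt3*, −0.12 to 0.19 for *Nqo1*, −7.43e-05 to 0.10 for *Slco1b2*, −0.0687 to 0.0103 for *Ugp2*, −0.0863 to 0.12 for *Ugt1a5*, −0.0502 to 0.14 for *Ugt1a6b*, −0.0583 to 0.0354 for *Ugt1a9*, −0.31 to 0.17 for *Ugt2b37* and −0.16 to 0.44 for *Ugt2b38*. Among the other named genes, leaving out 1 mouse moved the log2 fold change by more than 1.5 times for *Gstt2* (−0.11 without G2), *Gsto2* (−0.62 without G5), *Ugt1a1* (−0.14 without G2), *Ugt2b36* (0.06 without G8), *Ugt2a3* (0.05 without G13), *Ephx1* (0.12 without G8) and *Hnf4a* (−0.04 without G4), besides those given with the results. The cause was not tested. No paired analysis was possible because each replicate number belongs to 1 mouse of 1 group. Depth limits the members with few reads, such as *Gsto2* with 8 to 29 reads per mouse and *Ugt1a6a* with 3 to 110.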
